A study of Mus musculus with 2 samples.

Results

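The genes described here are 10 genes of glucose uptake and glycolysis, the transporters Slc2a1 and Slc2a3 and the enzymes Hk2, Aldoa, Tpi1, Gapdh, Pgk1, Eno1, Pkm and Ldha, out of 28009 genes listed. They were chosen by name for their place in the pathway, with earlier results of these data known, and all 10 were present. They were measured in IL-10+ CD4+ T cells sorted from spleen and from small intestine of IL-10eGFP Foxp3mRFP double reporter mice, in which green fluorescence marks Il10 and red fluorescence marks Foxp3. The mice were adult littermates matched for age and sex. All had been injected repeatedly with anti-CD3, which stimulates the T cell receptor complex, and were killed within hours of the last injection, so no untreated cells are included. Foxp3+ cells were kept in the sort. Cells of each tissue were captured on the 10x Genomics Chromium platform in 1 library, and how many mice were pooled is not given in the sources used here. The study's method for the intestine frees lymphocytes with EDTA and collagenase and enriches them on a Percoll gradient, so tissue, isolation and library cannot be told apart.

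Glycolysis splits glucose into pyruvate in the cytosol and yields ATP and building blocks for growth. T cells that are activated through their receptor take up more glucose, and much of their pyruvate is reduced to lactate even where oxygen is present. The transcription factors MYC and HIF-1 are known to drive many of the genes of this pathway in activated T cells, and regulatory T cells are known to lean less on it than effector T cells do.

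The promoters of 4 of the genes are shown because 3 of them, Slc2a1, Pgk1 and Ldha, hold the letters of the core of the HIF-1 binding motif and Tpi1, which differed most between the tissues, does not. Each window runs from 250 bases before to 50 bases after a transcription start in RefSeq (GRCm38.p6), and capitals mark ACGTG on the strand shown or on the other strand, where it reads CACGT.
Slc2a1, chr4:119108495-119108794, plus strand: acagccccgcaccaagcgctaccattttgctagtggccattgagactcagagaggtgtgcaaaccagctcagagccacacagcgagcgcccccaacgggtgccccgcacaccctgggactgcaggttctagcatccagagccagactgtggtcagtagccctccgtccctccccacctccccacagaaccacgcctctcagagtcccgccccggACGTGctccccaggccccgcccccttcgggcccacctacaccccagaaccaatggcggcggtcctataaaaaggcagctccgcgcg
Pgk1, chrX:106186850-106187149, plus strand: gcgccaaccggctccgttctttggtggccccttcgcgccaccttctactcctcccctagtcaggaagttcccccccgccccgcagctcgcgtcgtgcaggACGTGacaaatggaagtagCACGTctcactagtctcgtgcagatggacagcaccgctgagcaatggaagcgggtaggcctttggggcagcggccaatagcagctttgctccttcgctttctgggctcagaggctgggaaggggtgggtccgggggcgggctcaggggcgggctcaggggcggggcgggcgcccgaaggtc
Ldha, chr7:46845554-46845853, plus strand: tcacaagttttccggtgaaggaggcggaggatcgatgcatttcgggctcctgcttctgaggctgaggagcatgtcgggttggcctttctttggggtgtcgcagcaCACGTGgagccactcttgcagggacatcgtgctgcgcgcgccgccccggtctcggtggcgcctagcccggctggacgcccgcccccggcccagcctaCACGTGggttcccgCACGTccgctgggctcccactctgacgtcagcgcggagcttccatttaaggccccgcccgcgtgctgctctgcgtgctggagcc
Tpi1, chr6:124814109-124814408, minus strand: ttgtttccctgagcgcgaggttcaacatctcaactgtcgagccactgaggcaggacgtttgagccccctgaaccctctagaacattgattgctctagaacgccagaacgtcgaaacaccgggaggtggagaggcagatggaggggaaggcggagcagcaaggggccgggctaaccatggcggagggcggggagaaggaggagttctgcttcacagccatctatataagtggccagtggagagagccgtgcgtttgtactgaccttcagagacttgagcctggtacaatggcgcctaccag
Ldha had a second window without these letters. The Ldha window above held 5 matches, of which 4 overlap pairwise in 2 copies of CACGTG, the E-box that MYC binds. Of the 10 genes 9 had a window and 7 held ACGTG in at least 1 of theirs, all but Tpi1 and Eno1. GCGTG, another form of the core that is not capitalised above, was held by 4 genes, Eno1 among them but not Tpi1. Counted by window, 8 of 15 held ACGTG and 7 of 15 GCGTG, against 19.6% and 32.4% of all 32851 windows of this length. CACGTG was held by 1 of 15, the Ldha window above, against 7.15% of all windows, a share near that of all windows. The windows were not matched for base composition. Windows of 1 gene can overlap, and the ACGTG matches at -202 and -126 in 2 Aldoa windows are the same site. Slc2a3 had no entry. These matches describe letters only, and binding was not measured.

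The genes lie on chromosomes 4 (Slc2a1, Eno1), 6 (Slc2a3, Hk2, Tpi1, Gapdh), 7 (Aldoa, Ldha), 9 (Pkm) and X (Pgk1), and all are protein-coding. The last 400 bases of their transcripts were compared with all annotated transcripts, since reads from near-identical copies can be split between genes. Gapdh had 110 other genes with a stretch of at least 90 bases at 95% identity or more, 106 of them pseudogenes, but the 3 of them listed in the tables held only 34 intestinal and 56 splenic UMIs, beside 4950 and 13192 of Gapdh. Eno1 shared such a stretch with 4 genes, of which the listed copy Eno1b held 97 and 236 UMIs beside 1609 and 7418 of Eno1. Reads that fit a gene and its copy equally well were not counted, so how uncertain the values of Gapdh and Eno1 are was not measured. Ldha had 6 such copies, Tpi1 1 and Pkm 1, all pseudogenes outside the tables, and Aldoa had 2, of which the listed Aldoart1 held 11 and 8 UMIs. Slc2a1, Slc2a3, Hk2 and Pgk1 had no such copy.

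Levels were counted in UMIs, barcodes that let copies of the same captured RNA be counted once. The small intestine gave 1474 cell barcodes and 5693395 UMIs and the spleen 1738 barcodes and 11103530 UMIs, with 0 barcodes in common, and 1339 and 1648 cells passed the quality limits. Cells called as G2/M, the phase before and during division, numbered 66 among intestinal and 192 among splenic cells and were set aside in most comparisons, which left 1273 cells with a median of 3704 UMIs and 1456 cells with a median of 5380.5. The T cell markers Cd3d, Cd3e, Cd3g, Cd4 and Il10 were present in both, summing to 5146 and 4151 CPM (counts per 1000000 UMIs of the group). The pair of CD8 genes summed to 353 CPM in intestinal cells and 13.9 CPM in splenic cells, where Cd8a was at 0, and without the cells that had a Cd8b1 UMI as many genes were past the fold between the tissues. A list of 12 genes taken as stress genes of isolation, among them Fos and Jun, summed to 6209 CPM in intestinal and 4749 CPM in splenic cells. All mice had been given anti-CD3, so this sum does not set isolation apart from that treatment. The part of these genes in the results was not tested. With 1 library per tissue no test was made. Values in brackets are exact 95% intervals that cover counting error only, and a ratio of 1.5 or more in either direction is called past the fold.

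Outside G2/M, 6 of the 10 genes were lower past the fold in the small intestine and 1, Slc2a3, was higher. Over all 9015 genes with at least 50 UMIs, 23.9% were lower and 21.4% higher past the same fold, with a median log2 ratio of -0.02 against -0.77 for the 10 genes. The 20 genes of the cell cycle list still differed between these cells, at 202 CPM in intestinal and 633 CPM in splenic cells, with a UMI in 24.5% and 51.7% of cells, and their part in the difference was not tested. Summed over the 10 genes, the level was 3504 CPM (3452 to 3556) in the small intestine and 6181 CPM (6129 to 6232) in the spleen, a log2 ratio of -0.82.

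The 2 glucose transporters went opposite ways. Slc2a1, which encodes GLUT1, the main transporter of activated T cells, was at 18.3 CPM (14.8 to 22.5) in the small intestine and 48.9 CPM (44.5 to 53.7) in the spleen, a log2 ratio of -1.42 (-1.76 to -1.09). Slc2a3, which encodes GLUT3, a transporter with a high affinity for glucose, was at 38.4 CPM (33.2 to 44.3) and 19.6 CPM (16.8 to 22.7), a log2 ratio of 0.97 (0.67 to 1.27). Their intervals did not overlap between the tissues. Hk2, the hexokinase that traps glucose in the cell by phosphorylation, was at 34.9 CPM in the small intestine and 44.3 CPM in the spleen, with a log2 ratio of -0.35 (-0.61 to -0.09) that stayed under the fold.

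Among the enzymes that follow, Tpi1 differed most. Triosephosphate isomerase, its product, interconverts the products of the split sugar, and its level was 75.1 CPM (67.7 to 83.1) in the small intestine and 305 CPM (294 to 317) in the spleen, 4.07-fold higher in the spleen with a log2 ratio of -2.02 (-2.18 to -1.87). Aldoa, the aldolase one step before it, was at 487 and 698 CPM, a log2 ratio of -0.52 (-0.59 to -0.45). Gapdh, which makes the first NADH of the pathway, was at 869 and 1169 CPM, a log2 ratio of -0.43 (-0.48 to -0.38). Both of these stayed under the fold, although their intervals lay off 0. Gapdh is often used as a reference gene, and it was 1.35-fold higher in the spleen here.

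The steps that yield ATP were also lower in the small intestine. Pgk1, phosphoglycerate kinase, was at 44.4 CPM in the small intestine and 84.0 CPM in the spleen, a log2 ratio of -0.92 (-1.14 to -0.70). Pkm, pyruvate kinase, was at 775 and 1188 CPM, with a log2 ratio of -0.62 (-0.67 to -0.56) just past the fold. Eno1, the enolase between them, was at 288 CPM (273 to 303) and 665 CPM (648 to 682), a log2 ratio of -1.21 (-1.29 to -1.13). Ldha, the lactate dehydrogenase subunit that turns pyruvate into lactate, was at 875 CPM (849 to 901) and 1959 CPM (1930 to 1988), a log2 ratio of -1.16 (-1.21 to -1.11). The pathway thus differed unevenly, from 4.07-fold at Tpi1 to 1.27-fold at Hk2.

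**Figure D1:**
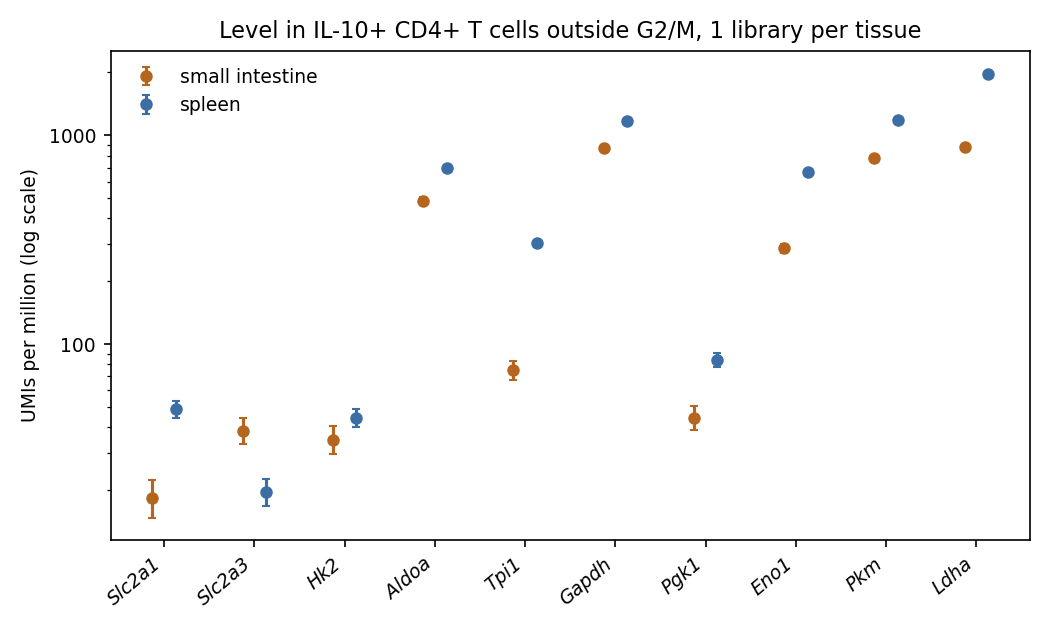
Level of each of the 10 genes in cells outside G2/M, in CPM on a log axis, 1 point per tissue and bars for the exact 95% Poisson interval. The spleen lies above the small intestine for every gene but Slc2a3, and the gap is widest at Tpi1 (75.1 against 305 CPM).

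The share of cells with a UMI showed the same order between tissues. As deposited, 21.4% of intestinal and 62.7% of splenic cells had a Tpi1 UMI. After every cell had been thinned to 2099 UMIs, which left 1145 and 1427 cells, the shares were 13.1% (11.2 to 15.2) and 37.9% (35.4 to 40.5). At this equal depth Slc2a1 was found in 4.02% and 9.39% of cells and Slc2a3 in 6.99% and 3.50%, with intervals that did not overlap. Eno1 was found in 41.5% and 69.8% of cells, Aldoa in 57.5% and 72.4%, and Ldha in 79.1% and 94.0%. Pkm was found in 73.5% and 84.1% of cells and Pgk1 in 8.30% and 15.1%. The intervals of Gapdh (78.2 to 82.9 and 82.2 to 86.0) and of Hk2 (4.87 to 7.76 and 6.83 to 9.75) overlapped. All cells use these genes, so no cell type in the libraries could give the share that free RNA alone produces.

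**Figure D2:**
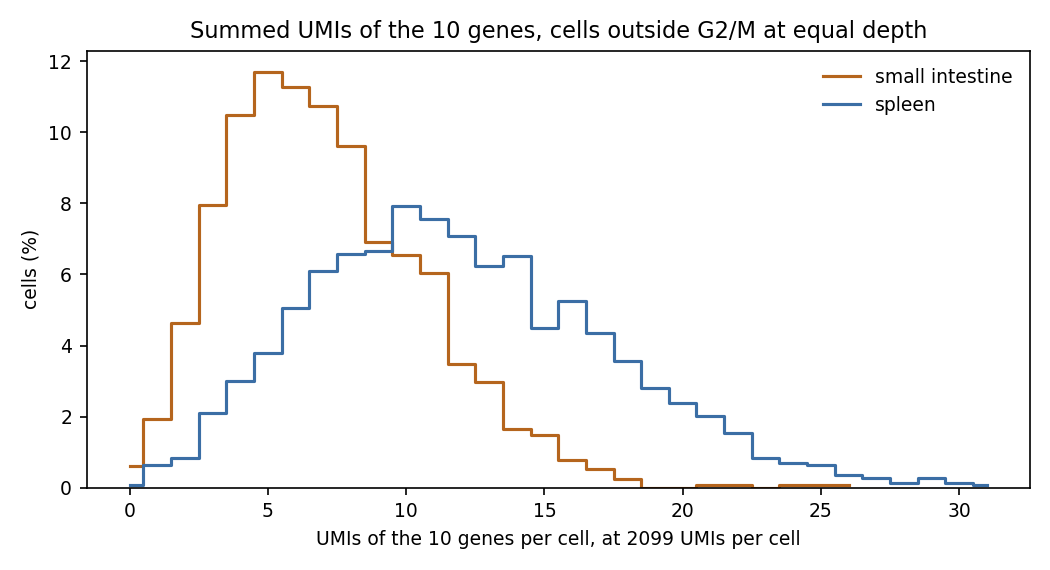
Percentage of cells outside G2/M by the number of UMIs of the 10 genes together, after thinning every cell to 2099 UMIs. The distribution of the small intestine has its median at 7 UMIs and that of the spleen at 11, and they overlap widely.

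At equal depth the 10 genes together gave a median of 7 UMIs per intestinal cell, with the central 80% of cells between 3 and 12, and 11 UMIs per splenic cell, between 5 and 19. The variance of this sum was 1.86 times its mean among intestinal cells and 2.41 times its mean among splenic cells, where a Poisson count would give 1. Few cells lacked all 10 genes, 0.611% of intestinal cells. Pairs of the 10 genes were only weakly related over single cells, with a median Pearson r of 0.05 over 45 pairs among intestinal cells and 0.07 among splenic cells. The highest r, 0.21, was that of Pkm and Ldha in the spleen. These are descriptions over cells of 1 library, in which sparse counts hold r low.

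The summed level of the 10 genes was higher in deeper cells of both tissues. In the shallowest, middle and deepest of 3 equal classes of intestinal cells it was 2865 CPM at a median of 2447 UMIs, 3242 CPM at 3703.5 and 3941 CPM at 5043. In those of splenic cells it was 4562 CPM at 3380, 5685 CPM at 5374 and 7002 CPM at 8903.5. The deepest class of intestinal cells thus stayed under the shallowest class of splenic cells. Over cells of 3000 to 6000 UMIs only, a choice made after the data had been seen, the summed level was 3404 CPM in 786 intestinal and 5181 CPM in 691 splenic cells, a log2 ratio of -0.61 (-0.64 to -0.57). The log2 ratio was then -1.85 for Tpi1, -0.94 for Ldha and 1.34 for Slc2a3, while Pkm came to -0.32 and Gapdh to -0.15. 6 genes were then past the fold, as Pkm no longer was. The share over all genes was not computed for this range of depth.

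**Figure D3:**
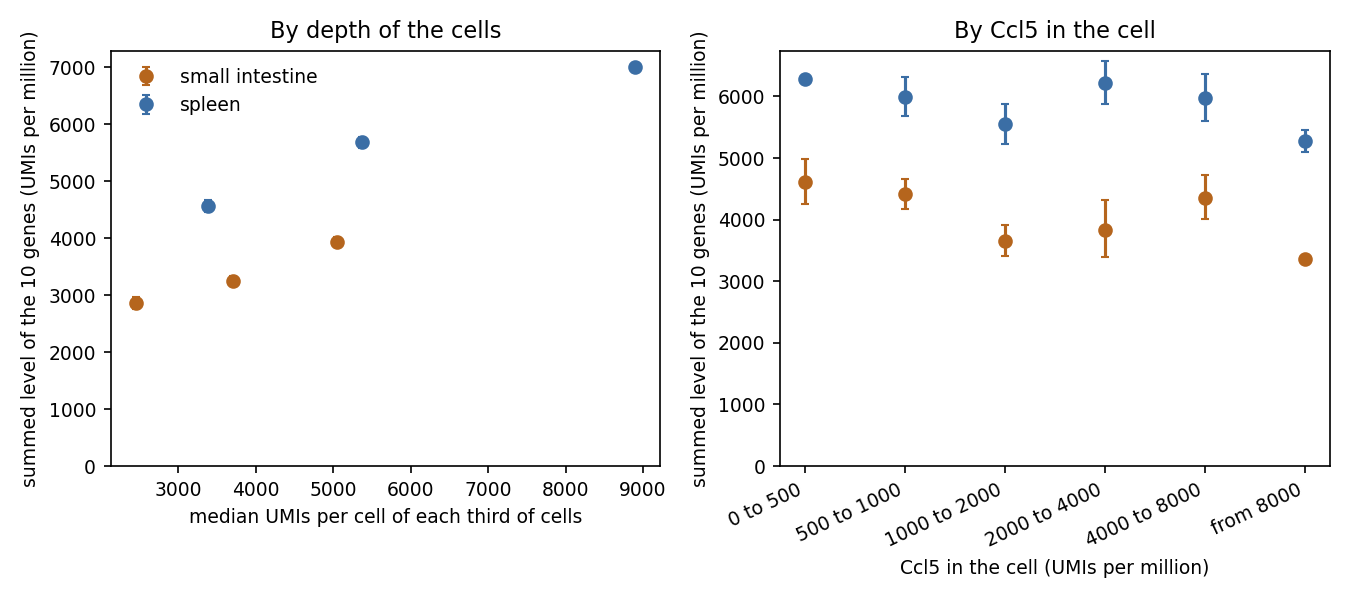
Summed level of the 10 genes in CPM in cells outside G2/M, on the left for 3 depth classes of each tissue at their median UMIs per cell, on the right by the Ccl5 level of the cell, with exact 95% Poisson intervals. The level is higher in deeper classes of both tissues, and the spleen is above the small intestine in each Ccl5 class.

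Ccl5, a chemokine of cytotoxic and some regulatory T cells, leads a set of cells found in both tissues, and a cell was called Ccl5-high at 1000 CPM of Ccl5 or more. This is a range of 1 gene and not a cell type. Outside G2/M 1174 intestinal cells were high and 99 low, against 224 and 1232 splenic cells, and 124 and 79 cells lay near the limit, at 500 to 2000 CPM. Only 6 intestinal cells had no Ccl5 UMI. Since the tissues differ this much in their make-up, they were compared again within cells of 1 state. These states do not match the tissues in Ccl5. Of the 99 intestinal low cells 67 lay at 500 to 1000 CPM, while 1187 of the 1232 splenic low cells lay under 500 CPM. The highest class of Ccl5 described below held 1066 of the 1174 intestinal and 126 of the 224 splenic high cells. The make-up can therefore still differ between the tissues within a state.

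Among Ccl5-high cells without a Foxp3 UMI (1158 intestinal and 204 splenic), 5 genes were lower past the fold in the small intestine and 0 higher, where 18.2% of 7103 genes were lower and 19.9% higher. Tpi1 was at 68.2 and 239 CPM, a log2 ratio of -1.81 (-2.05 to -1.57). Slc2a1 was at 18.4 and 56.0 CPM, a log2 ratio of -1.60 (-2.09 to -1.10). Eno1 at -1.15, Ldha at -1.14 and Pgk1 at -0.72 were the others. Slc2a3 no longer differed past the fold, at 37.8 and 32.5 CPM with a log2 ratio of 0.22 (-0.31 to 0.78), and Pkm came to -0.26.

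Among Ccl5-low cells without a Foxp3 UMI (87 intestinal and 976 splenic), 3 genes were lower past the fold and 1 higher, where 19.7% of 7234 genes were lower and 22.2% higher. Tpi1 was at 142 and 305 CPM, a log2 ratio of -1.10 (-1.52 to -0.71). Ldha was at 993 and 1915 CPM, a log2 ratio of -0.95 (-1.10 to -0.80), and Slc2a1 came to -1.04 (-2.27 to -0.04) on 8 intestinal UMIs. Slc2a3 was at 40.3 and 14.5 CPM, a log2 ratio of 1.47 (0.57 to 2.28). Eno1 at 529 and 641 CPM and Pgk1 at 75.1 and 78.2 CPM were close together in these cells, with log2 ratios of -0.28 (-0.49 to -0.07) and -0.06 (-0.66 to 0.49). Tpi1, Ldha and Slc2a1 were thus lower past the fold in the small intestine in both states, while Eno1 and Pgk1 were past it in Ccl5-high and not in Ccl5-low cells. The difference between the states was not tested.

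Among G2/M cells (66 intestinal and 192 splenic) 9 of the genes had at least 50 UMIs, and 8 of them, all but Hk2, were lower past the fold in the small intestine, where 24.0% of 4841 genes were lower and 15.0% higher. Ldha was at 724 and 1929 CPM, a log2 ratio of -1.41 (-1.59 to -1.24), and Aldoa at 223 and 522 CPM, a log2 ratio of -1.23 (-1.56 to -0.92). Hk2 was at 36.7 and 28.9 CPM with an interval of -0.59 to 1.20. Only 24 and 32 of these cells had 3000 to 6000 UMIs, and among them 4 genes were past the fold, Aldoa, Eno1, Pkm and Ldha. Gapdh, at -0.22, was the only other gene with at least 50 UMIs there. Tpi1, with 10 and 24 UMIs, came to -0.85 (-2.08 to 0.27). The share over all genes was not computed for these cells.

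**Figure D4:**
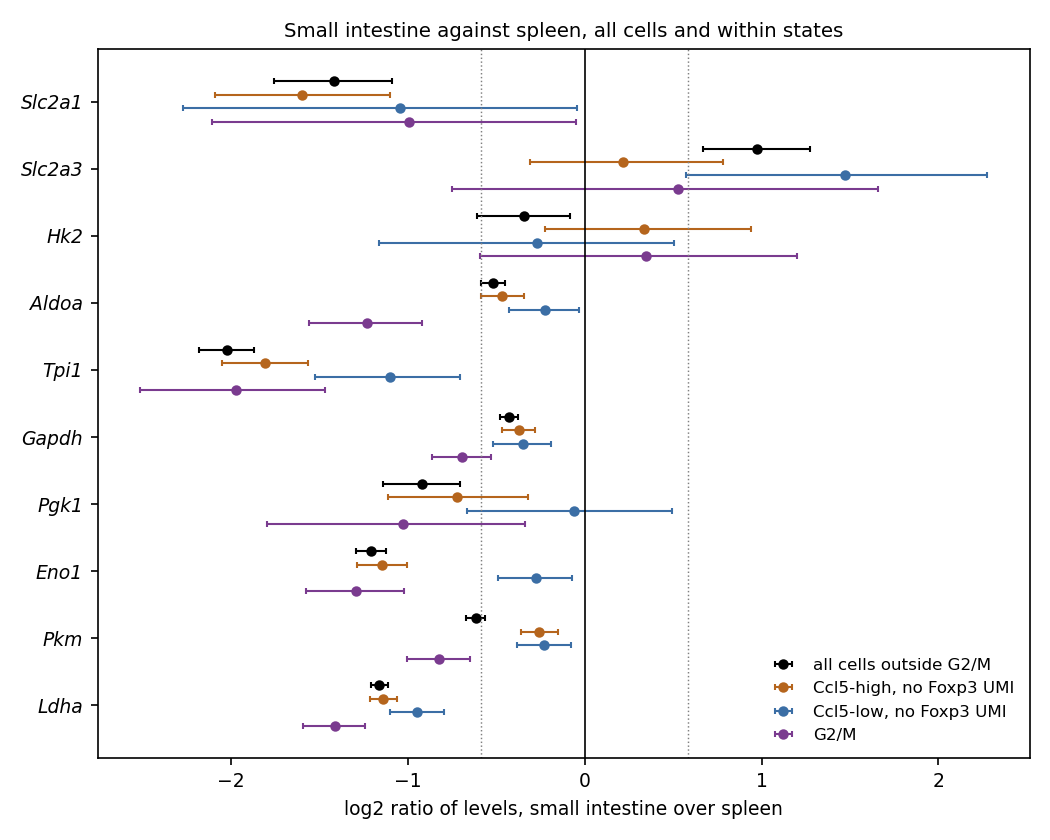
log2 ratio of the level in the small intestine over that in the spleen for each gene, over all cells outside G2/M and within 3 states, with exact 95% intervals for counting error and dotted lines at 1.5-fold. Tpi1, Ldha and Slc2a1 lie left of 0 and past the fold in all 4 comparisons. Aldoa, Gapdh, Pgk1, Eno1 and Pkm also lie left of 0 in all 4, but not each time past the fold. Slc2a3 lies right of 0 with an interval off 0 only over all cells and among Ccl5-low cells.

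Cells in G2/M were then compared with the others of their tissue, as dividing cells are larger. In the small intestine 2 genes were lower past the fold in G2/M and 0 higher, where 16.6% of 7095 genes were lower and 13.9% higher. Aldoa was at 223 CPM (91 UMIs) in G2/M cells and 487 CPM in the others, a log2 ratio of -1.13 (-1.45 to -0.83). At equal depth 32.3% (20.9 to 45.3) of G2/M cells had an Aldoa UMI, against 57.5%. Slc2a3 rested on 9 UMIs, and its interval of -1.95 to 0.15 held 0. Ldha was at 724 and 875 CPM, a log2 ratio of -0.27 (-0.45 to -0.10), and the intervals of the other 7 genes held 0.

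In the spleen 1 gene, Hk2, was lower past the fold in G2/M cells and 0 were higher, where 12.2% of 8479 genes were lower and 11.0% higher. Hk2 was at 28.9 CPM in G2/M cells and 44.3 CPM in the others, a log2 ratio of -0.62 (-1.07 to -0.19). Aldoa was again the lower in G2/M, at 522 and 698 CPM, with a log2 ratio of -0.42 (-0.52 to -0.32), while Gapdh was at 1340.2 and 1169 CPM, a log2 ratio of 0.20 (0.13 to 0.26). Summed over the 10 genes the levels were 6316 and 6181 CPM. G2/M cells were deeper, with a median of 8731 UMIs among splenic and 6035 UMIs among intestinal cells. Over cells of 3000 to 6000 UMIs the summed level was 4440 CPM in 32 G2/M cells and 5181 CPM in the others, a log2 ratio of -0.22 (-0.33 to -0.11), and that of Aldoa was -1.12 among splenic and -1.80 among intestinal cells.

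Foxp3 is the transcription factor of regulatory T cells, and cells outside G2/M with at least 1 Foxp3 UMI numbered 276 among splenic and 28 among intestinal cells. Only 132 of the splenic cells had at least 2, so a cell without a Foxp3 UMI, here or in the states above, need not be Foxp3-negative. Splenic cells without one held Ikzf2 and Il2ra, the other genes of the regulatory T cell list, at a summed 298 CPM. This sum does not show how many of these cells are Foxp3+. In the spleen 0 of the 10 genes were past the fold, where 6.50% of 8073 genes were higher and 7.47% lower. All 10 log2 ratios were above 0, from 0.02 for Aldoa to 0.57 for Slc2a3, and 8 of the intervals excluded 0. The median over all genes was 0.04. How many of all genes lay above 0, or had an interval off 0, was not computed. Counting intervals are narrow for genes with many UMIs, so these 2 counts do not set the 10 genes apart. Slc2a3 was at 25.9 CPM in cells with a Foxp3 UMI and 17.5 CPM in the others. Pgk1 was at 106 and 76.7 CPM, a log2 ratio of 0.47 (0.24 to 0.69), Pkm at 1414 and 1112 CPM (0.35, 0.29 to 0.41) and Ldha at 2108 and 1908 CPM (0.14, 0.10 to 0.19). Cells with a Foxp3 UMI were deeper, with a median of 7649 UMIs against 5038.5, and held more of the cell cycle list, 892 CPM against 545 CPM. Over cells of 3000 to 6000 UMIs (77 and 614) the summed levels were 5286 and 5167 CPM, a log2 ratio of 0.03 (-0.04 to 0.10), and 6 of the 10 ratios were below 0, so the shared direction was not seen among cells of like depth. Pkm stayed higher there, at 1091 and 909 CPM with a log2 ratio of 0.26 (0.11 to 0.42).

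In the small intestine 4 genes were higher and 2 lower past the fold in the 28 cells with a Foxp3 UMI, where 22.4% of 6862 genes were higher and 19.7% lower. Genes without a UMI in these 28 cells were set to 3 UMIs, which is 20.1 CPM here. Those low in the other cells could then count as higher, so the 22.4% may be too high. By how much was not measured. Pkm was at 1366 and 757 CPM, a log2 ratio of 0.85 (0.64 to 1.06), Eno1 at 489 and 281 CPM (0.80, 0.44 to 1.14) and Ldha at 1299 and 862 CPM (0.59, 0.38 to 0.80). Tpi1, with 17 UMIs in these cells, had an interval of -0.17 to 1.32. Slc2a1 and Hk2 were the lower genes, but with 1 and 2 UMIs their intervals ran from -6.80 to 1.03 and from -4.46 to 0.47. Among Ccl5-low cells (12 with and 87 without a Foxp3 UMI) 1 gene, Pkm, was past the fold, with a log2 ratio of 0.60.

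Ccl5-high cells were compared with Ccl5-low cells of their tissue. In the small intestine 3 genes were lower past the fold in Ccl5-high cells and 0 higher, where 18.7% of 6862 genes were lower and 12.9% higher, with a median log2 ratio of -0.14 over all genes. Eno1 was at 262 CPM in Ccl5-high and 552 CPM in Ccl5-low cells, a log2 ratio of -1.07 (-1.27 to -0.87). Tpi1 was at 68.8 and 140 CPM, a log2 ratio of -1.03 (-1.42 to -0.61), and Pgk1 at 41.5 and 74.6 CPM, a log2 ratio of -0.85 (-1.39 to -0.27). Pkm came to -0.52 and Ldha to -0.30, while Slc2a3 stood at 38.4 and 38.5 CPM and Hk2 at 34.9 and 33.9 CPM. Over cells of 3000 to 6000 UMIs Eno1 stayed at -0.95 (-1.25 to -0.64), and Tpi1 came to -0.24 (-0.96 to 0.57). The CD8 genes summed to 387 CPM in the Ccl5-high and 4.52 CPM in the Ccl5-low cells, and without the cells that had a Cd8b1 UMI the count of genes past the fold was also 3. Ccl5-high cells held less of the cell cycle list (181 against 409 CPM) and of the regulatory T cell genes Foxp3, Ikzf2 and Il2ra (96.5 against 283 CPM). They also held less of the isolation stress genes (6084 against 7499 CPM). The part of these lists was not tested.

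In finer classes of Ccl5 the level of Eno1 in the small intestine was 644 CPM in the 32 cells under 500 CPM of Ccl5, 511 CPM at 500 to 1000, 406 CPM at 1000 to 2000 and 251 CPM in the 1066 cells of the highest class. In the same 6 classes of the spleen, from the lowest to the highest, it was 677, 626, 703, 674, 597 and 541 CPM. The middle classes of the spleen held only 45, 34, 35 and 29 cells. Their intervals overlapped (528 to 738, 593 to 827, 564 to 799 and 484 to 728 CPM), so they do not show whether splenic Eno1 ran down over these classes.

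In the spleen 1 gene was higher and 1 lower past the fold in Ccl5-high cells, where 7.96% of 8073 genes were higher and 9.96% lower. Slc2a3 was at 30.7 CPM in Ccl5-high and 17.8 CPM in Ccl5-low cells, a log2 ratio of 0.78 (0.22 to 1.31) on 38 and 139 UMIs. Hk2 was at 30.7 and 46.4 CPM, a log2 ratio of -0.60 (-1.12 to -0.11) that lay at the edge of the fold. Pkm was at 892 and 1235 CPM (-0.47, -0.56 to -0.38) and Tpi1 at 242 and 315 CPM (-0.38, -0.56 to -0.21). Slc2a1 at 55.7 and 47.9 CPM, Aldoa at 662 and 704 CPM and Ldha at 1873 and 1972 CPM were close together. Over cells of 3000 to 6000 UMIs 0 of the genes with at least 50 UMIs were past the fold, and Slc2a3, with 45, came to 0.92 (-0.17 to 1.91). For this range the share over all genes was not computed. The summed level, at 5559 CPM in Ccl5-high and 6279 CPM in Ccl5-low cells of all depths (log2 ratio -0.18, -0.21 to -0.14), turned direction among cells of 3000 to 6000 UMIs, at 5379 and 5143 CPM (0.06, 0.0043 to 0.12).

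**Figure D5:**
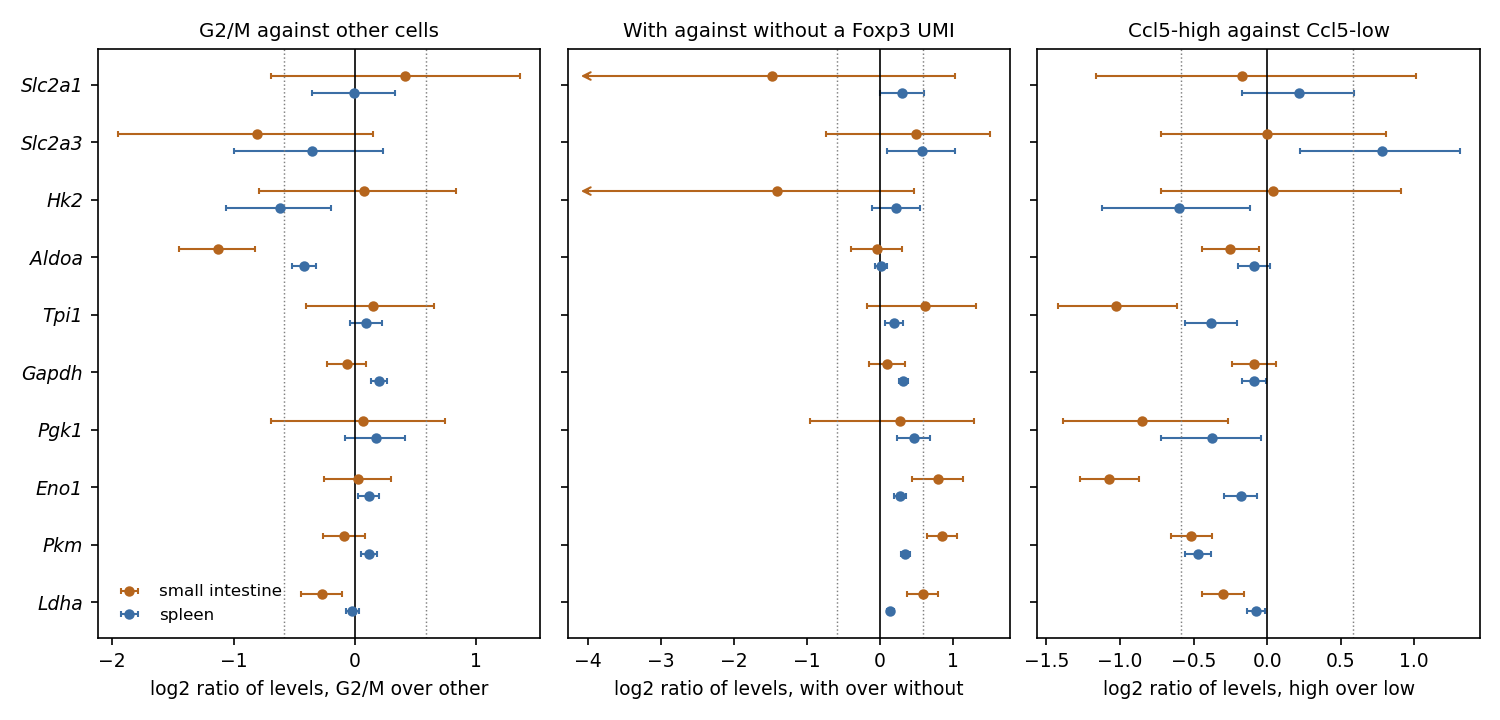
log2 ratio of each gene between states within a tissue, for G2/M against other cells, cells with against without a Foxp3 UMI, and Ccl5-high against Ccl5-low cells, with exact 95% intervals (arrows where they run past the axis) and dotted lines at 1.5-fold. Aldoa is lower in G2/M in both tissues, and Eno1, Tpi1 and Pgk1 lie furthest left in intestinal Ccl5-high cells (-1.07, -1.03 and -0.85).

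Other genes of the pathway were counted between the tissues, outside G2/M, where 23.9% of all 9015 genes were lower past the fold and 21.4% higher. Of 9 measured further enzymes of glycolysis 5 were lower past the fold in the small intestine and 0 higher, among them Pgam1, phosphoglycerate mutase, at 65.1 and 252 CPM (log2 ratio -1.95) and Pfkl, a subunit of phosphofructokinase, at 20.5 and 73.6 CPM (-1.84). Of 8 genes of lactate and pyruvate handling 5 were lower and 0 higher. Among them were Slc16a1 (-1.98) and Slc16a3 (-1.40), the lactate carriers MCT1 and MCT4, and Pdk1 (-1.92), a kinase that inhibits pyruvate dehydrogenase. Of 12 genes of the pentose phosphate and branch pathways 7 were lower and 0 higher, led by Psat1 (-1.95) and Shmt2 (-1.81) of serine and one-carbon metabolism. The list medians were -0.91, -0.75 and -0.67, beside -0.02 over all genes.

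Regulators went both ways. Of 13 measured, 3 were lower and 5 higher past the fold in the small intestine, the former a share near that of all genes (23.9% lower, 21.4% higher). Myc was at 17.9 CPM in the small intestine and 78.3 CPM in the spleen, a log2 ratio of -2.13 (-2.46 to -1.81), and Egln3, a HIF prolyl hydroxylase that HIF itself induces, was at 18.5 and 52.9 CPM (-1.51). Tsc22d3, which glucocorticoids induce and which was listed among the regulators, was at 390 and 106 CPM (1.87), and Arnt, the partner of HIF-1 alpha, at 21.5 and 9.52 CPM (1.18). Of 9 HIF target genes outside glycolysis 5 were lower and 0 higher, with Bnip3 at -2.33 and Mif at -1.96. The list medians were 0.07 for the regulators and -0.77 for the HIF targets. Among Ccl5-high cells, where 18.2% of all genes were lower and 19.9% higher, 2 of 7 HIF targets were lower and 0 higher. Their list median was 0.17. Among Ccl5-low cells 19.7% of all genes were lower and 22.2% higher. There 5 of 9 HIF targets were lower, with a list median of -0.75, and 2 were higher, a share near that of all genes, Ddit4 (0.94) and Bnip3l (0.63). The last 2 genes were named after their values were seen. Of the other sugar transporters only Slc2a8 had 50 UMIs, at 16.5 and 5.09 CPM (1.70).

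Within the spleen Myc was also lower in G2/M cells (29.5 and 78.3 CPM, log2 ratio -1.41) and in Ccl5-high cells (38.7 and 84.6 CPM, -1.13), as were Slc16a1 (-1.03 and -1.07) and Pdk1 (-0.67 and -0.73). In splenic cells with a Foxp3 UMI Slc16a3 was at 90.1 CPM against 48.1 CPM (0.91, 0.65 to 1.16) and Txnip, which restrains glucose uptake, at 44.8 against 84.2 CPM (-0.91, -1.23 to -0.60). Depth differed between these splenic groups, with a median of 7649 UMIs with and 5038.5 without a Foxp3 UMI. The ratios of these further genes were not recomputed among cells of like depth. In intestinal Ccl5-high cells, where 18.7% of all genes were lower and 12.9% higher, 4 of 7 genes of lactate and pyruvate handling were lower, among them Pdk1 (-1.28) and Mpc1 (-1.15), a subunit of the carrier that takes pyruvate into the mitochondrion. Slc16a3 of that list was higher on 6 UMIs in Ccl5-low cells (0.77, -0.40 to 2.25). Of 8 further enzymes 4 were lower and 1, Ldhb, was higher on 2 UMIs in Ccl5-low cells (1.38, -0.54 to 4.46).

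The genes whose level followed the sum of the 10 most closely over single cells at equal depth were, by mean Pearson r over both tissues among 456 genes, Srgn (0.29), Tnfrsf4 (0.27), Pfn1 (0.27), Eif4a1 (0.25), Lgals1 (0.23), Ppia (0.23), Eif5a (0.22), Ptma (0.22), Actg1 (0.22) and Ctsb (0.21). Srgn encodes the granule proteoglycan serglycin, Tnfrsf4 the activation receptor OX40, and Eif4a1 and Eif5a translation factors. At the other end were Malat1 (-0.31), a nuclear RNA, and ribosomal protein genes such as Rps27 (-0.28). The median r over all 456 genes was 0.02 in both tissues. Cells of a tissue share 1 library, and these values are a description only.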

How the data were processed

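IL-10+ CD4+ T cells of mouse spleen and small intestine were measured, with 1 library per tissue. The deposited counts are whole UMIs per gene and cell barcode, which the authors made by trimming reads with Trimmomatic and aligning to Mm10 and counting with Cell Ranger, without normalization (versions not given in the sources used here).

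Cells were left out when log UMIs or log genes lay over 3 median absolute deviations under the median, or the mitochondrial share as far over it. G2/M cells were called with cyclone (scran 1.30.0, R 4.3.3), with marker pairs that hold one of the 10 genes, another listed pathway gene, Foxp3 or Ccl5 dropped, which kept 28191 of 28492 pairs. No doublet caller was run. Cells over 3 median absolute deviations above the median depth were left out as an alternative. Levels are summed UMIs per 1000000 UMIs of the group (CPM) with exact Poisson intervals. Ratios have exact binomial intervals and shares Clopper-Pearson intervals, all at 95%. A sum of 0 was set to 3 UMIs in counts of genes past the fold. Genes needed 50 UMIs in both groups together. Python 3.11.15, numpy 2.4.6 and scipy 1.17.1 were used. The ratio step was tested on simulated counts and the thinning step on the measured counts of the spleen.

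The genes and lists were chosen with earlier results of these data known. All 10 genes are given in each comparison, and of each other list at most 4 genes with the largest ratio past 1.5-fold. Gene locations and transcripts are from GENCODE M21 (GRCm38), promoters from RefSeq (GRCm38.p6). The T cell list had 5 and the B cell list 4 of 6 genes in the tables. B cell genes summed to 14.1 CPM in intestinal and 6.31 CPM in splenic cells, myeloid genes to 208 and 174, epithelial genes to 22.3 and 32.9 and red cell genes to 0 and 0.332.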

Additional observations from a re-analysis of the deposited data

How the results depend on the processing

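No paired analysis was possible because each tissue is 1 library and no result comes from a test. Over 19 alternative settings 1025 of 1141 recomputed log2 ratios stayed within the counting interval of the reported value. This share was 58 of 98 at 3000 to 6000 UMIs, 10 of 20 with the cycle gene list and 79 of 98 after thinning, while a lower UMI minimum for genes could move no ratio. Of the counts of genes past the fold 94 of 115 stayed within 1.5 times. The count between the tissues ran from 6 to 8, beside 7 as reported. For these settings the share over all genes was not computed, and genes under the UMI minimum in a setting could not be counted there. The setting with only cells of 3000 to 6000 UMIs and the Ccl5 limit of 4000 CPM were chosen after seeing the data. A further 9 ratios had no UMI in a group and were given no value, while in counts such a sum was set to 3 UMIs. Where this applies, a count does not show whether the ratio of that gene held. The cause of the changes below was not tested.

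For Ccl5-high against Ccl5-low splenic cells, 2 genes as reported became 1 with levels scaled by the median ratio, with the mean of the cells' own CPM, after thinning, without Cd8b1 cells, with G2/M cells kept and at the limit of 4000 CPM, and 0 at 3000 to 6000 UMIs. For the intestinal comparison 3 became 5 at a limit of 500 CPM. For G2/M in the small intestine 2 became 1 with the cells' own CPM, without Cd8b1 cells and among Ccl5-low cells with no Foxp3 UMI, and 5 after thinning. For G2/M in the spleen 1 became 0 with the cycle gene list and 5 at 3000 to 6000 UMIs. For Foxp3 in the spleen 0 became 1 with the cells' own CPM, without deep cells, at 2 or more Foxp3 UMIs and among Ccl5-low cells. For Foxp3 in the small intestine 6 became 3 without deep cells and 1 among Ccl5-low cells. Among the Ccl5-low cells Slc2a1, Slc2a3, Hk2 and Pgk1 had under 50 UMIs and could not be counted. Without deep cells Slc2a1 and Hk2, the 2 lower genes, had no UMI in cells with a Foxp3 UMI and were set to 3 UMIs. Their leaving the count therefore does not show a smaller difference. The same 2 genes had no UMI after thinning, at 2 or more Foxp3 UMIs and at 3000 to 6000 UMIs. The counts in these settings therefore do not show whether the 2 ratios held. Between the tissues within G2/M 8 became 4 at 3000 to 6000 UMIs, where only these 4 and Gapdh had at least 50 UMIs.

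Of the log2 ratios past the fold, those that reversed were Slc2a3 for G2/M in the small intestine, at 0.067 with the cells' own CPM and 0.60 among Ccl5-low cells with no Foxp3 UMI, Tpi1 for Foxp3 in the small intestine, at -0.13 among Ccl5-low cells, and Slc2a1 between the tissues within G2/M, at 0.41 over cells of 3000 to 6000 UMIs, on 2 UMIs in each tissue. Over all ratios 14 with an interval off 0 changed sign, the last one named included, and 10 of these at 3000 to 6000 UMIs, such as Gapdh (-0.09 to 0.18) and Ldha (-0.07 to 0.13) for Ccl5 in the spleen and Gapdh (0.32 to -0.03) for Foxp3 in the spleen. Depth limits the low genes most: 9 Slc2a3 UMIs in intestinal G2/M cells and 1 Slc2a1 UMI in intestinal cells with a Foxp3 UMI.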
